A study of Mus musculus with 6 samples.

Results

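In mouse articular cartilage, 10 genes known from natural killer (NK) cells and cytotoxic lymphocytes were measured, which are Nkg7, Gzma, Gzmb, Prf1, Klrb1c, Ncr1, Klrk1, Klrd1, Eomes and Tbx21. They were chosen by gene symbol, with earlier results of these data known, and all 10 were found among the 33971 genes of the table. Cartilage was sequenced in 3 libraries from wild-type (WT) mice aged 2 months and in 3 from WT mice aged 18 months. The labels name no treatment and no strain, and the mice of the study are described as male. The polyadenylated RNA of each library was sequenced from both ends, and each gene had a read count and an FPKM value, which is the count scaled by transcript length and by the size of the library. The question of the design was how gene expression of the tissue changes with age.

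NK cells are innate lymphocytes that kill infected, stressed or transformed cells without prior sensitization. Activating receptors such as NKG2D and NKp46 and inhibitory receptors of the lectin-like family weigh the signals of a target cell, and killing follows when granules with perforin and granzymes are released at the contact. The transcription factors T-bet and Eomes guide the development of NK cells and of CD8 T cells, so most genes of this group are shared between both lymphocytes. Articular cartilage has no blood vessels and normally holds chondrocytes alone, whereas the bone marrow below it holds lymphocytes and all other blood cells.

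The libraries held between 48171507 and 59085179 counts, and 3 counts, taken as the limit that a count of 0 allows, were between 5.08e-06% and 6.23e-06% of them. The tissue was checked against its own markers and those of other cells. The 16 chondrocyte markers took 6.79% to 8.00% of all counts at 2 months and 0.191% to 0.823% at 18 months, and 1 to 3 of them were at 0 in each 18-month library. The 14 neutrophil markers took 4.29% to 4.61% of the counts at 18 months, and 0.00174%, 0.563% and 0.0268% in 2-month replicates 1, 2 and 3. The 10 erythroid markers took 2.71% to 3.59% at 18 months, and 0.0248%, 0.664% and 0.0698% in the 2-month libraries. Replicate 2 thus stood apart from the other 2-month libraries by its blood-cell transcripts, and the calls below are given with and without it. Xist, the transcript of the inactive X chromosome, had 88239 to 102417 counts at 2 months and 11 to 30 at 18 months. That pattern goes against the description of the 2-month mice as male, and sex and age cannot be told apart in these libraries. The labels number the libraries without saying how animals were assigned to them, and p-values measure only the spread between these samples.

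The promoters of the 4 granule genes are shown because T-bet and Eomes belong to the same group of genes, and their T-box family binds a core with the letters AGGTGT. RUNX factors, which act in NK cells and CD8 T cells, bind a core with the letters TGTGGT. Each sequence is the run of 250 bases before the RefSeq start site on GRCm38.p6, written 5′ to 3′ on the strand of the gene, with both cores in capitals (ACACCT and ACCACA where the core lies on the opposite strand). The windows are chr7:43436888-43437137 on the plus strand for Nkg7, chr13:113100982-113101231 on the minus strand for Gzma, chr14:56262335-56262584 on the minus strand for Gzmb, and chr10:61297586-61297835 on the plus strand for Prf1.
Nkg7: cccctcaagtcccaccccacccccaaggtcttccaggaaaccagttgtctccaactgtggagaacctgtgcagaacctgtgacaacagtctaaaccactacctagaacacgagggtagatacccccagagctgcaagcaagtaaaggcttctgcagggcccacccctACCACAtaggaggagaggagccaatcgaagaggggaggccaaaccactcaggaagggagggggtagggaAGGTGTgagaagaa
Gzma: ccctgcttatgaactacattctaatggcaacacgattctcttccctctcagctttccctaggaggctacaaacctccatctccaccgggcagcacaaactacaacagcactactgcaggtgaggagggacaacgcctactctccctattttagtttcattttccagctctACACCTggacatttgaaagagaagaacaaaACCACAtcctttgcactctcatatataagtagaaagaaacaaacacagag
Gzmb: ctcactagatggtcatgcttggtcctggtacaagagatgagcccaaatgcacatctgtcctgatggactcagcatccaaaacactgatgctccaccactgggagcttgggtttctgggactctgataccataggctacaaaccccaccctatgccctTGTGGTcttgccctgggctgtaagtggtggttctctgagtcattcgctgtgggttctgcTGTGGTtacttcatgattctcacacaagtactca
Prf1: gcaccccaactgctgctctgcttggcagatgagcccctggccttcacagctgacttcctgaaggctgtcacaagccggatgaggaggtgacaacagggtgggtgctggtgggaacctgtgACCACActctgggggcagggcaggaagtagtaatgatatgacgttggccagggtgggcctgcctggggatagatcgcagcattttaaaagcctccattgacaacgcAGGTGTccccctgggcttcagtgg

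RefSeq promoters were matched for 9 of the 10 genes by symbol. A gene with several start sites, such as Ncr1, was counted once, if any of its windows held the core. The T-box core was found for 3 of the 9 genes, Nkg7, Gzma and Prf1, against 13.58% of 27025 genes with windows of the same length. In Nkg7 its first base lay 14 bases before the start site, in Prf1 24 bases and in Gzma 80 bases, there on the opposite strand. The RUNX core was found for 7 of the 9 genes, against 15.92% of all genes. Gzmb had 2 RUNX cores, at 93 and 34 bases before the start site, and no T-box core. Neither core was found before Eomes or Tbx21. These are matches of letters on both strands, no match overlapped another, and binding was not measured.

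At 2 months the 10 genes were close to undetected in 2 of the 3 libraries. Their counts summed to 24 in replicate 1 and 55 in replicate 3, with 5 and 4 of the genes at 0, and to 851 in replicate 2, with none at 0. At 18 months the sums were 7683, 6609 and 6836 counts, and every gene had counts in every library. Genes were called from edgeR's quasi-likelihood test over 20397 genes, at an adjusted p (Benjamini-Hochberg) under 0.05 together with a log2 fold change over 1 in size. Of the 10 genes, 4 were called higher at 18 months (Gzmb, Klrb1c, Eomes and Tbx21), where 14.9% of all genes tested were called higher. None was called lower, where 21.3% of all genes were, and all 10 log2 fold changes were above 0 in edgeR, DESeq2 and limma. At 9 of the 10 genes each 18-month library lay above each 2-month library, Gzma being the exception, and 33.9% of all genes had that pattern. The median log2 fold change of the 10 genes was 3.34, beside −0.02 over all genes tested.

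Without 2-month replicate 2, all 10 genes were called higher and none lower, where 23.3% of the genes tested were called higher and 21.3% lower. Their median was then 5.83 on the log2 scale, or 5.14 with the 3 genes that had no count in the remaining 2-month libraries set at their lower bound. The same library therefore decided 6 of the 10 calls. It had been set apart by its blood-cell transcripts and was the highest 2-month library at each of the 10 genes. Leaving it out thus raised their differences by construction, and values without it, here and below, are no separate support for them. Leaving out 2-month replicate 3 or any one 18-month library instead left 1 gene called, Tbx21, and leaving out 2-month replicate 1 left 2. Because the libraries are bulk tissue, fewer cells of a type and less RNA per cell cannot be told apart in any of these values. An exact permutation test of 3 against 3 libraries cannot go below a two-sided p of 0.1, so the calls rest on the spread that edgeR shares across genes.

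**Figure D1:**
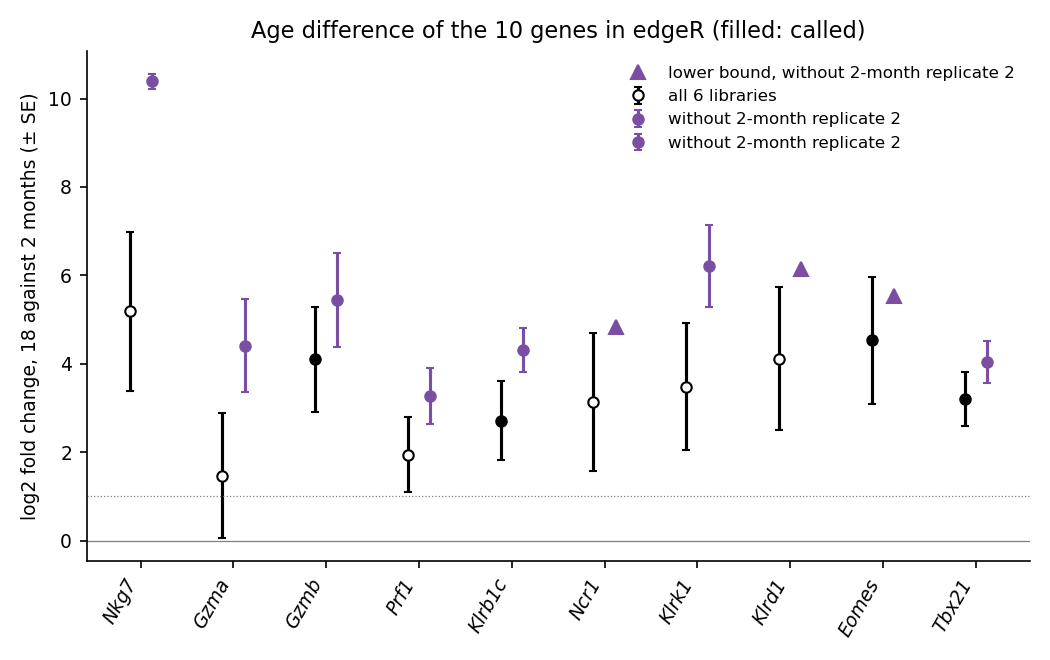
Log2 fold change of 18-month against 2-month cartilage (vertical axis, bars ± SE) for each of the 10 genes, fitted on all 6 libraries (black) and without 2-month replicate 2 (purple), with called genes filled and the called log2 limit of 1 dotted. Triangles are lower bounds for Ncr1, Klrd1 and Eomes, which had no count in the other 2-month libraries, and every gene lies above 0 in both. The purple bar of Nkg7 understates its error, since its 2-month side held 6 counts.

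Both transcription factors were low in level and were called. Tbx21 (ENSMUSG00000001444, chromosome 11 from 97098071 to 97115331, minus strand) encodes T-bet, which drives the maturation of NK cells and the cytotoxic programme of CD8 T cells. It had 4, 21 and 7 counts at 2 months against 118, 95 and 131 at 18 months. The ages did not overlap, and even 2-month replicate 2 was at 20.0% of the 18-month mean of scaled counts. At 2 months its FPKM was 0.0690 ± 0.0606 (SD, n = 3), compared with 0.710 ± 0.110 (SD, n = 3) at 18 months. Tbx21 rose by a log2 fold change of 3.19 (SE 0.61, adjusted p = 0.0082), and by 4.04 (SE 0.48, adjusted p = 0.0011) without replicate 2.

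Eomes (ENSMUSG00000032446, chromosome 9 from 118478212 to 118486132, plus strand) encodes eomesodermin, the T-box partner of T-bet that marks mature conventional NK cells. It had 0, 20 and 0 counts at 2 months against 233, 143 and 159 at 18 months. All 2-month counts thus came from replicate 2, which was at 12.4% of the 18-month mean. The FPKM was 0.0271 ± 0.0470 (SD, n = 3) and 0.654 ± 0.153 (SD, n = 3). Eomes rose by a log2 fold change of 4.53 (SE 1.43, adjusted p = 0.0420). Against the other 2-month libraries, taken at the limit of 3 counts per library, it was at least 46.5-fold higher. The antisense gene Gm33460 shares 574 bases with it.

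The receptors come next. Klrb1c (ENSMUSG00000030325, chromosome 6 from 128778485 to 128789215, minus strand) encodes NK1.1, the surface antigen by which NK cells are recognized in many mouse strains. It had 5, 72 and 13 counts at 2 months and 221, 239 and 210 at 18 months, with little spread among the older libraries. At 2 months the FPKM was 0.172 ± 0.210 (SD, n = 3) and at 18 months 1.16 ± 0.0985 (SD, n = 3). Klrb1c rose by a log2 fold change of 2.71 (SE 0.90, adjusted p = 0.0476), close to the limit, and by 4.30 (SE 0.50, adjusted p = 0.00098) without replicate 2. Its locus shares 8931 bases with the protein-coding gene Gm44511 on the same strand, so the division of reads between them is uncertain.

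Klrd1 (ENSMUSG00000030165, chromosome 6 from 129591782 to 129598775, plus strand) encodes CD94, which pairs with NKG2 chains to read the non-classical major histocompatibility (MHC) molecule Qa-1. Its counts were 0, 41 and 0 at 2 months and 214, 287 and 293 at 18 months. The FPKM was 0.179 ± 0.310 (SD, n = 3) and 3.19 ± 0.622 (SD, n = 3), the highest level among the receptors of the group at 18 months. The log2 fold change was 4.12 (SE 1.61, adjusted p = 0.0763), and the gene was not called although the ages did not overlap. Against the 2-month libraries other than replicate 2, which had no count, it was at least 70.1-fold higher (adjusted p = 0.00045).

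Klrk1 (ENSMUSG00000030149, chromosome 6 from 129610323 to 129623864, minus strand) encodes NKG2D, the receptor for stress ligands. It had 0, 103 and 10 counts at 2 months and 416, 499 and 492 at 18 months. The FPKM was 0.0855 ± 0.131 (SD, n = 3) and 1.01 ± 0.134 (SD, n = 3). The log2 fold change was 3.48 (SE 1.44, adjusted p = 0.0888) with all libraries and 6.21 (SE 0.94, adjusted p = 0.0026) without replicate 2.

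Ncr1 (ENSMUSG00000062524, chromosome 7 from 4337724 to 4345164, plus strand) encodes NKp46, the receptor most restricted to NK cells and some innate lymphoid cells. Its counts were 0, 33 and 0 at 2 months and 176, 71 and 85 at 18 months. Here the older libraries differed among themselves, replicate 1 being above the other two. The FPKM was 0.121 ± 0.209 (SD, n = 3) and 1.09 ± 0.519 (SD, n = 3), and the log2 fold change 3.13 (SE 1.56, adjusted p = 0.139). Without replicate 2 it was at least 28.6-fold higher (adjusted p = 0.0020).

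Among the effectors, Gzmb was called and the others were not. Gzmb (ENSMUSG00000015437, chromosome 14 from 56258838 to 56262260, minus strand) encodes granzyme B, the protease that starts apoptosis in a target cell. It had 0, 32 and 10 counts at 2 months and 180, 324 and 317 at 18 months. The FPKM was 0.163 ± 0.191 (SD, n = 3) and 2.97 ± 0.962 (SD, n = 3). Gzmb rose by a log2 fold change of 4.10 (SE 1.19, adjusted p = 0.0319), and by 5.45 (SE 1.07, adjusted p = 0.0070) without replicate 2.

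Gzma (ENSMUSG00000023132, chromosome 13 from 113093825 to 113100981, minus strand) encodes granzyme A, a tryptase that is abundant in resting NK cells. Its counts were 8, 97 and 0 at 2 months and 87, 123 and 112 at 18 months. It was the gene whose ages overlapped, since 2-month replicate 2 lay above 18-month replicate 1 and at 98.0% of the 18-month mean. The FPKM was 0.592 ± 0.910 (SD, n = 3) and 1.65 ± 0.335 (SD, n = 3). The log2 fold change was 1.47 (SE 1.41, adjusted p = 0.414), and 4.41 (SE 1.06, adjusted p = 0.015) without that library.

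Prf1 (ENSMUSG00000037202, chromosome 10 from 61297833 to 61304680, plus strand) encodes perforin, which forms the pore through which granzymes enter. It had 4, 50 and 12 counts at 2 months and 121, 64 and 108 at 18 months. The FPKM was 0.144 ± 0.162 (SD, n = 3) and 0.575 ± 0.166 (SD, n = 3), and replicate 2 of the 2-month mice came near the lowest 18-month library. The log2 fold change was 1.94 (SE 0.84, adjusted p = 0.0998), and 3.26 (SE 0.63, adjusted p = 0.0068) without that library.

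Nkg7 (ENSMUSG00000004612, chromosome 7 from 43437073 to 43438249, plus strand) encodes a granule membrane protein that is needed for granule release. It was by far the most abundant of the 10 genes, with 3, 382 and 3 counts at 2 months and 5917, 4764 and 4929 at 18 months. The FPKM was 2.40 ± 4.08 (SD, n = 3) and 87.9 ± 7.31 (SD, n = 3). Its log2 fold change was also the largest of the 10, 5.18, but its SE of 1.80 left it uncalled (adjusted p = 0.0551). Without replicate 2 the log2 fold change was 10.39 (adjusted p = 2.4e-05). Its SE of 0.17 there, taken from √F, understates the error, since the 2-month side held 6 counts. Pooled over 6 counts in the other 2-month libraries, the ratio was 1367-fold, with an exact 95% interval from 628-fold to 3725-fold for counting error alone.

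**Figure D2:**
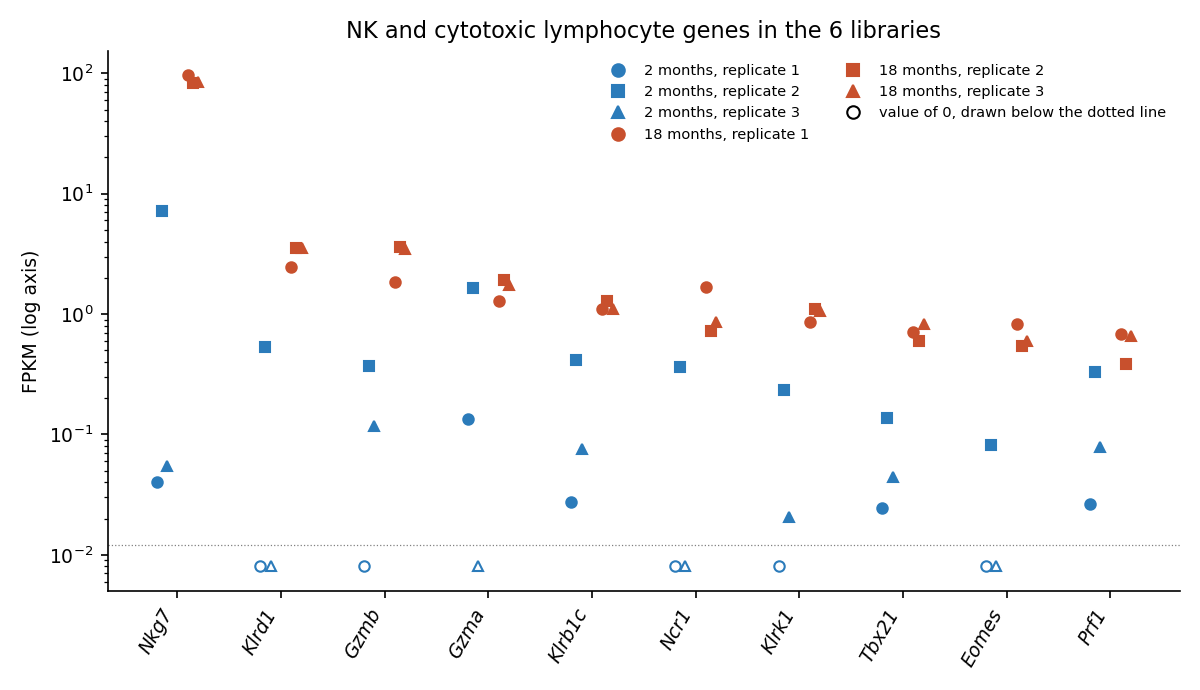
FPKM (log axis) of the 10 genes in each library, ordered by their mean at 18 months, with 2-month libraries in blue, 18-month libraries in red and values of 0 as open symbols below the dotted line. Nkg7 lies above the other 9 genes at 18 months, and 2-month replicate 2 (blue squares) lies above the other 2-month libraries at every gene.

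On the FPKM scale, which is per length, Nkg7 stood alone at 18 months, with each library above those of every other gene of the group. Klrd1, Gzmb and Gzma followed, and neighbours in that order overlapped between libraries. Klrb1c, Ncr1 and Klrk1 lay near 1 FPKM, at means of 1.16, 1.09 and 1.01. Ncr1 overlapped with both others, whereas the lowest value of Klrb1c (1.103) lay just above the highest of Klrk1 (1.099). Tbx21, Eomes and Prf1 had the lowest levels, at means of 0.710, 0.654 and 0.575 FPKM, and overlapped with each other. Ncr1, the gene with the widest spread among these, also overlapped with Gzma above and with Tbx21 and Eomes below.

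The share of Nkg7 in the group's counts therefore differed between libraries. It took 77.0% (95% Wilson interval 76.1% to 77.9%) of the counts of the 10 genes in 18-month replicate 1, and 72.1% (71.0% to 73.2%) in each of the others. In 2-month replicate 2 it took 44.9% (41.6% to 48.2%), below all 18-month libraries. With 24 and 55 counts in all, the other 2-month libraries gave 12.5% (4.34% to 31.0%) and 5.45% (1.87% to 14.9%). Intervals cover counting error only, since 1 library has no replicate of its own.

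The 10 genes were also set against Ptprc, which encodes CD45, the surface phosphatase of all leukocytes. Ptprc had 38, 5842 and 392 counts at 2 months and 35268, 25585 and 25029 at 18 months, so the ratios of 2-month replicates 1 and 3 rest on few counts. For the 9 genes other than Nkg7 together, the 2-month libraries had 553 (exact 95% interval 308 to 966), 80.3 (72.9 to 88.2) and 133 (97.4 to 177) counts per 1000 Ptprc counts. The 18-month libraries had 50.1, 72.1 and 76.2. As a sum, the 9 genes were thus not lower per Ptprc count in the young libraries than in the old ones. Only 21 and 52 counts of the 9 genes stood behind the values of replicates 1 and 3. With Nkg7 included, the 2-month libraries had 632 (362 to 1080), 146 (135 to 157) and 140 (104 to 186), against 218, 258 and 273. The sum of all 10 genes was thus lower than at 18 months in 2-month replicates 2 and 3 and higher in replicate 1. The ratios were not tested for age.

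Single genes departed from the sum of the 9 genes in both directions, and the young libraries did not go together at each gene. Per 1000 Ptprc counts, Prf1 had 105 (27.3 to 292), 8.56 (6.34 to 11.3) and 30.6 (15.7 to 54.1) at 2 months, against 3.43, 2.50 and 4.31 at 18 months, so each young library lay above each old one. Nkg7 had 78.9 (15.6 to 249), 65.4 (58.8 to 72.5) and 7.65 (1.57 to 22.5) at 2 months, against 168, 186 and 197, and lay lower in each young library, with an interval that reached the old values in replicate 1. Gzma had 211 (84.8 to 458) and 16.6 (13.4 to 20.3) in 2-month replicates 1 and 2, above 2.47, 4.81 and 4.47 at 18 months, whereas replicate 3 had no count, which allows up to 9.45.

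Gzmb had 5.48 per 1000 Ptprc counts in 2-month replicate 2 and 25.5 (12.1 to 47.4) in replicate 3, against 5.10, 12.7 and 12.7 at 18 months. Klrb1c had 132 (40.4 to 335), 12.3 (9.63 to 15.5) and 33.2 (17.5 to 57.4) at 2 months, against 6.27, 9.34 and 8.39, again higher in each young library. The interval of 2-month replicate 2 overlapped with that of 18-month replicate 2 (8.19 to 10.6). Eomes had 3.42 (2.09 to 5.29) in replicate 2, against 6.61, 5.59 and 6.35, where the interval overlapped with that of 18-month replicate 2. It had no count in replicates 1 and 3, which allows up to 102 and 9.45, above the old values. Tbx21 had 3.59 in replicate 2, within the range of the old libraries, and 105 (27.3 to 292) and 17.9 (7.13 to 37.1) in replicates 1 and 3, above them. Klrk1 had 17.6 in replicate 2, within the range of the old libraries, and 25.5 (12.1 to 47.4) in replicate 3. Gzmb and Klrk1 had no count in replicate 1, which allows up to 102. Ncr1 had 5.65 (3.88 to 7.94) in replicate 2, against 4.99, 2.78 and 3.40, with an interval overlapping those of 18-month replicates 1 and 3. Klrd1 had 7.02 (5.03 to 9.53) there, against 6.07, 11.2 and 11.7. Neither had a count in replicates 1 and 3, with the same limits as Eomes.

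**Figure D3:**
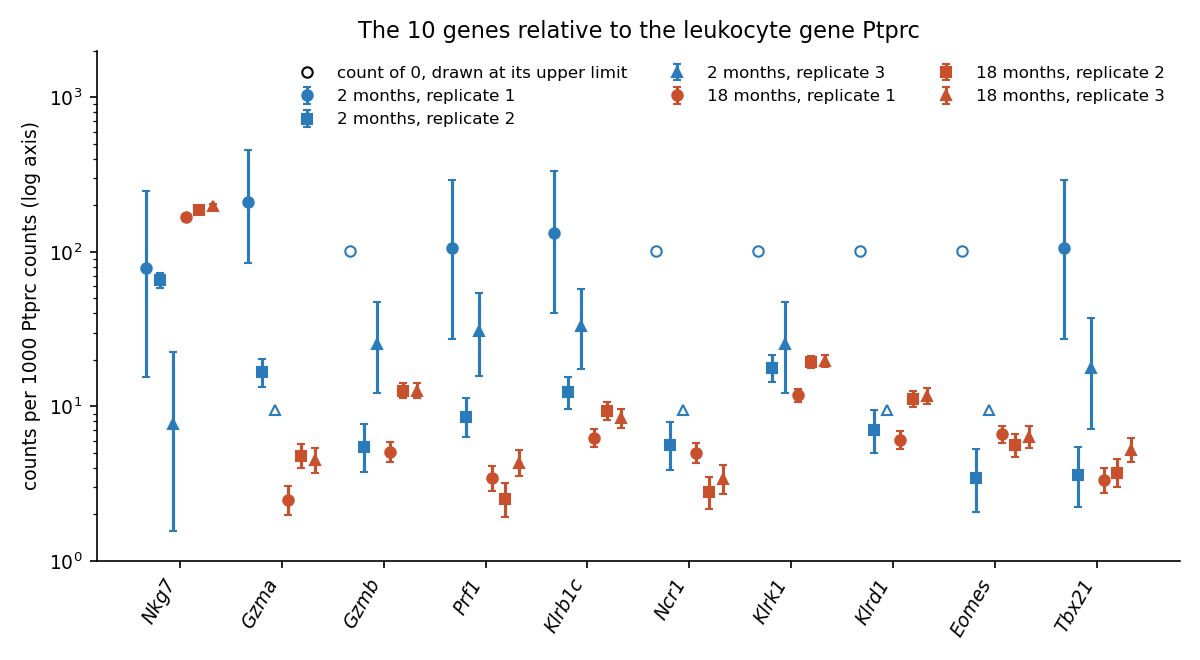
Counts of each gene per 1000 counts of Ptprc (log axis, bars are exact 95% intervals for counting error) in each 2-month library (blue) and 18-month library (red), with counts of 0 as open symbols at their upper limit. Prf1 lies higher and Nkg7 lower in each 2-month library than in every 18-month library, and the intervals of 2-month replicate 1 are wide.

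Summed markers of several other blood cells moved with these genes, while those of B cells overlapped between ages. As a share of the mean of scaled counts at 18 months, 2-month replicate 2 held 8.05% for Nkg7 and 27.8% for the sum of the other 9 genes. In the same library the 6 pan-leukocyte genes stood at 20.1%, the neutrophil markers at 12.5%, the mast cell and basophil markers at 10.2%, the monocyte and macrophage markers at 25.4%, and the B cell markers at 124.8%. Of the 16 T cell markers, 12 were called higher at 18 months and none lower, beside 14.9% and 21.3% of all genes tested. No overlap between ages, with the older libraries higher, was seen at 14 of them, beside 33.9% of all genes. Without replicate 2, 14 of the 16 were called higher, beside 23.3% of all genes. Cd3e, a chain of the T cell receptor complex, had 0, 21 and 0 counts at 2 months and 333, 208 and 181 at 18 months, and Cd3g was likewise at 0 in 2-month replicates 1 and 3. The T cell list as a whole took 0.00323% to 0.00416% of the counts at 2 months and 0.0121% to 0.0154% at 18 months. Most of its counts at 2 months in replicates 1 and 3 came from the one gene Cd28, with 1916 of 2011 and 1355 of 1555, and Cd28 had a log2 fold change of −1.10 (adjusted p = 0.196), while the median of the list was 4.65. The part of T cells and of marrow cells in the values of the 10 genes was not tested.

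Beyond the 10 genes, 8 lists of NK cell biology held 127 genes, of which 122 were in the table and 108 were tested. At 18 months 40 of them were called higher and 4 lower, beside 14.9% and 21.3% of all genes tested, and 95 had a log2 fold change above 0, with a median of 2.48. Without 2-month replicate 2, 79 of 112 were called higher and 4 lower, beside 23.3% and 21.3% of all genes, and 44 genes were called in both fits. The list counts that follow are read against the same shares, and the values of named genes are those with all libraries. The lists hold genes of many leukocytes, and the neutrophil, erythroid and monocyte shares given above moved the same way.

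**Figure D4:**
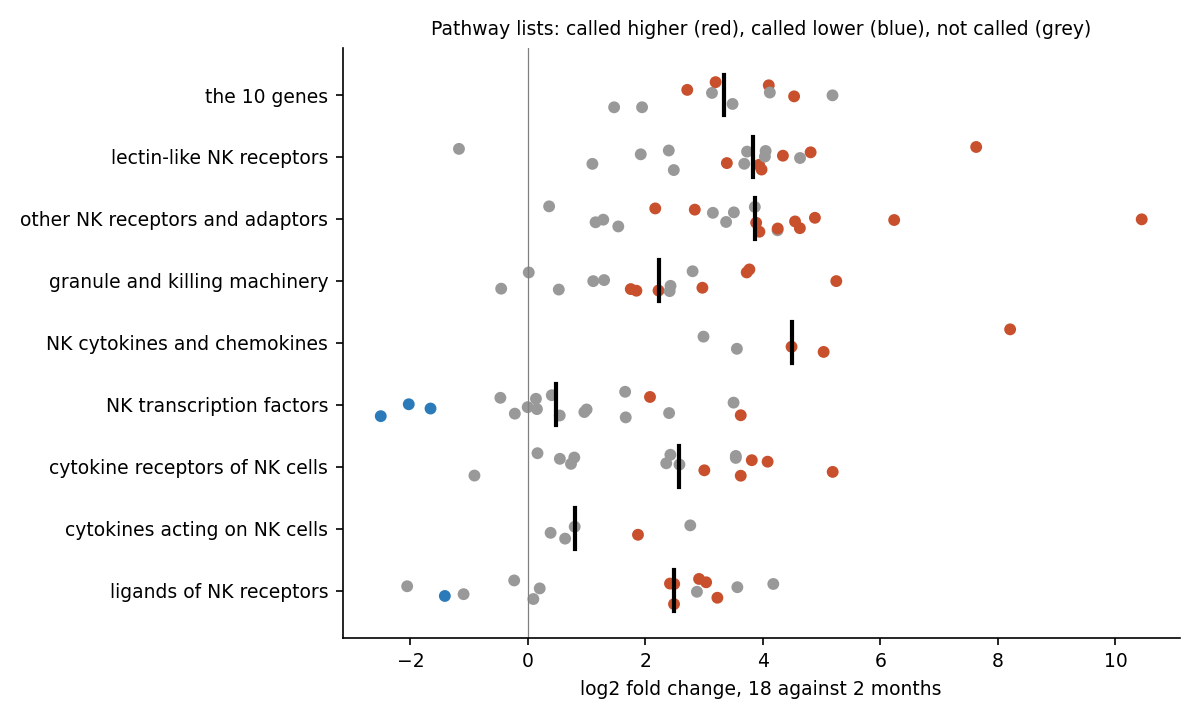
Log2 fold change (18-month against 2-month cartilage, all 6 libraries) of each tested gene in the 10-gene group and the 8 lists, called higher in red, called lower in blue and not called in grey, with black bars at the medians. Fitted values of Klra9, Crtam and Xcl1, at the far right of their lists, stand against 2-month libraries without a count and are no measure of size.

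Among the lectin-like receptors, 6 of 16 genes tested were called higher and none lower, and the log2 fold changes had a median of 3.83 (3.71 with Klra9 at its lower bound). Without 2-month replicate 2, 16 of 18 were called higher. Klra8, which encodes Ly49H, the receptor for a cytomegalovirus protein, rose by 4.34 (SE 1.34, adjusted p = 0.0387), from a mean of 0.0582 FPKM to 1.34. Klra9 had no count at 2 months and 21, 37 and 22 counts at 18 months, at least 7.42-fold higher. Klra2 was the most abundant gene of the list that was not called, with 7, 182 and 0 counts at 2 months and 1764, 1746 and 1689 at 18 months (log2 fold change 4.63, SE 1.65, adjusted p = 0.0589).

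All 21 genes of that list and the 3 Klr genes of the 10-gene group lie on chromosome 6 between positions 122270596 and 131247362. In 2-month replicates 1, 2 and 3, 19, 4 and 16 of these 24 genes had no count. At 18 months 20 of them had counts in every library. Klr genes form a multigene family with near-identical copies, so reads could have been divided between members. Klrb1a was the member with a log2 fold change below 0 (−1.17, adjusted p = 0.0554) among those tested, with 66, 42 and 36 counts at 2 months and 32, 23 and 23 at 18 months.

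**Figure D5:**
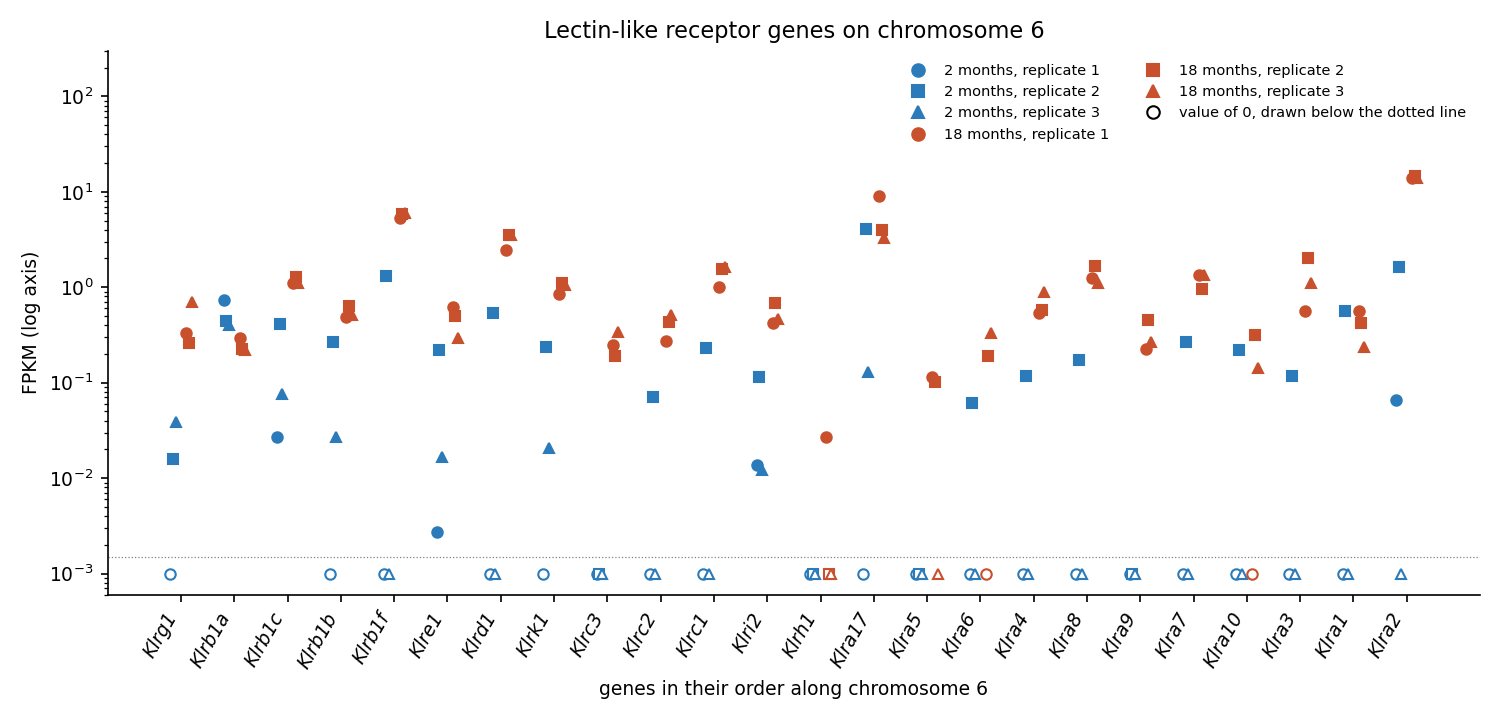
FPKM (log axis) of the 24 Klr genes in each library, placed in their order along chromosome 6 and not to scale, with 2-month libraries in blue, 18-month libraries in red and values of 0 as open symbols below the dotted line. Most genes are at 0 in 2-month replicates 1 and 3, and Klrb1a alone has its 2-month libraries above all 18-month libraries.

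Of the other receptors and adaptors, 10 of 19 were called higher and none lower, with a median log2 fold change of 3.86, and without replicate 2 the count was 18 of 20. Fcer1g, a signalling chain shared by NK receptors and the Fc receptors of myeloid cells, rose by 3.88 (SE 1.20, adjusted p = 0.039), from 12.7 to 189 FPKM. Crtam, a receptor of activated NK and CD8 T cells, had no count at 2 months and 88, 230 and 243 at 18 months, at least 52.5-fold higher. Tyrobp, which encodes the adaptor DAP12 of NK and myeloid cells, was not called, at 37.6 and 549 FPKM (log2 fold change 3.86, SE 1.57, adjusted p = 0.0847).

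In the granule and killing machinery, 7 of 15 genes were called higher and none lower, with a median of 2.22, and 12 of 15 were called higher without replicate 2. Srgn, the proteoglycan core on which granule proteases are packed in lymphocytes and myeloid cells, rose by 2.97 (SE 0.16, adjusted p = 0.00071), from 28.5 to 235 FPKM. Gzmk, a granzyme of memory CD8 T cells, rose by 5.25 (SE 1.36, adjusted p = 0.0225), with 0, 15 and 0 counts at 2 months and 255, 210 and 200 at 18 months. Lamp1, a lysosomal membrane protein of most cells, was not called (0.01, SE 0.13, adjusted p = 0.937).

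Among the 5 cytokine and chemokine genes tested, 3 were called higher and none lower, with a median of 4.49, or 3.56 with Xcl1 at its lower bound. All 5 were called higher without replicate 2. Ccl5, a chemokine of cytotoxic lymphocytes, rose by 5.03 (SE 0.67, adjusted p = 0.0028), with 11, 46 and 9 counts at 2 months and 751, 869 and 878 at 18 months. Xcl1, which draws cross-presenting dendritic cells, had no count at 2 months and 69, 32 and 22 at 18 months, at least 11.1-fold higher. Tnf was not called (2.99, SE 1.35, adjusted p = 0.111).

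Of 18 other transcription factors of NK cells, 2 were called higher and 3 lower, with a median of 0.47. No overlap between ages was seen at 8 with the older libraries higher, beside 33.9% of all genes, and at 3 with the older libraries lower. Without replicate 2, 6 were called higher and 3 lower. Nfil3, which is needed for the NK lineage, rose by 2.08 (SE 0.15, adjusted p = 0.00092), from 3.28 to 14.6 FPKM, and Stat4, which carries the signal of interleukin 12, rose by 3.62 (SE 0.81, adjusted p = 0.0134). Foxo1, which holds back NK maturation and also acts in chondrocytes, fell by 2.50 on the log2 scale (SE 0.40, adjusted p = 0.0048), from 14.6 to 2.76 FPKM. Runx3, which acts in cartilage as well, fell by 2.03 on that scale and Tox by 1.66, both named after their values were seen. Id2 was not called (0.14, SE 0.19, adjusted p = 0.571). The chondrocyte markers fell in the same libraries, all 16 being called lower, beside 21.3% of all genes tested. The part of chondrocytes in the values of these transcription factors was not tested.

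Of the 15 genes for cytokine receptors, their kinases and chemokine receptors, 5 were called higher and none lower, with a median of 2.58, and 11 were called higher without replicate 2. Il18rap, a chain of the interleukin 18 receptor, rose by 5.19 (SE 1.74, adjusted p = 0.0497), with 4, 680 and 26 counts at 2 months and 6100, 11037 and 11057 at 18 months. Tyk2, a kinase of many cytokine receptors, was not called (0.16, SE 0.15, adjusted p = 0.387). Of the 5 cytokine genes that act on NK cells and were tested, Il15 was the one called, and 2 were called without replicate 2. Il15 encodes the survival factor of NK cells and rose by 1.87 (SE 0.20, adjusted p = 0.0017), from 1.28 to 4.99 FPKM. Tgfb1, which restrains NK cells, had an adjusted p of 0.0042 with a log2 fold change of 0.63, under the limit on size.

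Ligands of NK receptors were called higher in 6 of 15 genes and lower in 1, with a median of 2.49. Without replicate 2, 9 of 16 were called higher and 1 lower. B2m, the light chain of the MHC class I molecules that inhibitory receptors read, rose by 2.49 (SE 0.48, adjusted p = 0.0085), from 213 to 1231 FPKM. Clec2g, of the Clr family that Klrb1 receptors bind, rose by 3.22 (SE 0.97, adjusted p = 0.036). Pvr, a ligand of the activating receptor encoded by Cd226, fell by 1.41 on the log2 scale (SE 0.25, adjusted p = 0.0065), from 2.94 to 1.17 FPKM. Cd48 was not called (3.56, SE 1.32, adjusted p = 0.0657).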

How the data were processed

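Articular cartilage was analysed in 3 libraries of 2-month-old and 3 of 18-month-old mice, each as its own sample. For each gene the authors deposited raw whole-number counts and FPKM values scaled by transcript length and library size. Libraries were strand-specific and poly(A)-selected. The submitters' processing notes name cutadapt 1.9, HISAT2 2.0.4, UMI-tools, StringTie 1.3.4d, DESeq2 and edgeR without roles. The genome build and the strand setting of the counting are not given in the sources used here. All 10 genes had the coordinates of GENCODE M21 (GRCm38).

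The count test used edgeR 4.0.16 under R 4.3.3 (TMM, filterByExpr, quasi-likelihood test, no replicate block), with Benjamini-Hochberg adjustment over 20397 genes. SEs were obtained by dividing log2 fold changes by √F. Scaled counts are TMM-scaled CPM. A 2-month group or library at 0 was set to 3 counts per library for lower bounds. Alternatives were other scalings, no filter, DESeq2 1.42.0, limma 3.58.1 on log2(FPKM + 0.1) or log2(FPKM + 1), a replicate block and leaving out each library. The scripts' tests were tried on simulated data.

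The 10 genes and all lists were chosen with earlier results of these data known. Of 232 listed pathway and marker genes, 227 were found by symbol. From each list the text names the most abundant called gene in each direction, the called gene with the largest fold change and the most abundant gene not called. The limits on fold and adjusted p follow the study's methods. The values of 1 marker gene are not reported here.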

Additional observations from a re-analysis of the deposited data

How the results depend on the processing

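All log2 fold changes of the 10 genes stayed above 0 in every alternative that tested them, and none of the genes was called lower in any of them. The number called higher, 4 with all libraries in edgeR, was 2 without a filter on low counts and 9 with limma on log2(FPKM + 0.1). It ran from 1 to 10 when single libraries were left out. Leaving out 2-month replicate 2 gave 10, leaving out 2-month replicate 1 gave 2, and leaving out 2-month replicate 3 or any one 18-month library gave 1 (Tbx21). DESeq2 called 6, total counts alone 3 and DESeq2's size factors 4, and limma on log2(FPKM + 1) called 3. With a mean FPKM of at least 1, 4 of the 10 genes were tested and 3 called. Over the alternatives, Tbx21 was called in 12 of 13 and Gzmb in 10 of 14, while Klrb1c and Eomes were called in 5 of 13 each, Nkg7 in 5 of 14 and Gzma in 1 of 14. Adjusted p-values ran from 1.1e-07 to 0.0364 for Tbx21 and from 1.1e-05 to 0.101 for Gzmb.

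The 40 pathway genes called higher became 64 with DESeq2 and 70 with limma on log2(FPKM + 0.1), and 22 to 79 when single libraries were left out, with 24, 25 and 22 without 18-month replicates 1, 2 and 3. The 4 called lower became 2 with limma on log2(FPKM + 1) and 3 with a mean FPKM of at least 1. They became 6 with DESeq2 and 5 without 18-month replicate 3. Deviations of same-numbered libraries correlated at 0.09, 0.09 and −0.09. The numbers thus gave no sign of pairing, which so few libraries per age cannot exclude. With the number as a replicate block 3 of the 10 genes were called, Eomes no longer, and 33 pathway genes were called higher.

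At the counts of the 2-month libraries a difference between undetected genes cannot be sized beyond a lower bound. The values of 2-month replicate 2 have no second library of their kind to give an error. Sex, marrow cell content and age cannot be told apart.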

Other observations

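Innate lymphoid and plasmacytoid dendritic cells can express some of the same genes, and their markers were looked at beside them. Of 9 innate lymphoid markers, 3 were called higher at 18 months (Il1rl1, Cxcr6 and Cd200r1) and 3 lower, among them Rora and Itga1. These were named after their values were seen. Without 2-month replicate 2, 5 of the 9 were called higher and 3 lower. Over all genes tested, 14.9% were called higher and 21.3% lower with all libraries, and 23.3% and 21.3% without replicate 2. Cxcr6, a chemokine receptor of tissue lymphocytes, rose by a log2 fold change of 3.85 (SE 0.71, adjusted p = 0.0071 in edgeR's quasi-likelihood test), with 9, 31 and 4 counts at 2 months and 267, 248 and 227 at 18 months. Of 8 plasmacytoid dendritic cell markers, Bst2 was called higher and Tcf4 lower, and without replicate 2, 7 were called higher and 1 lower. Siglech, the defining receptor of those cells, had 4, 412 and 0 counts at 2 months and 1046, 657 and 655 at 18 months, and was not called (log2 fold change 2.35, SE 1.85, adjusted p = 0.321).

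Among T cell markers, Cd8b1, the second chain of CD8, rose by 6.70 (SE 1.13, adjusted p = 0.0055), with 0, 6 and 0 counts at 2 months and 277, 230 and 257 at 18 months. Per 1000 counts of Cd3e, the 9 genes other than Nkg7 had 22333 counts (exact 95% interval 14440 to 36423) in 2-month replicate 2, beside 5303, 8870 and 10536 in the 18-month libraries. The interval of the young library lay above those of all 3 old libraries. It rests on 21 counts of Cd3e in 1 library.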
